A study of Parasteatoda tepidariorum with 16 samples.

Results

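The comparison described here is that of intermediate (i) and peripheral (p) cells of the nascent germ disc of the common house spider *Parasteatoda tepidariorum* at stage 3. It rests on 6 of the 16 RNA-seq libraries of the study, 3 of i cells (i1 to i3) and 3 of p cells (p1 to p3), and on the 9861 of 27990 gene models that had at least 1 CPM (read counts scaled to an equal library size) in at least 1 of these 6 libraries. The embryos were wild-type, of the Osaka isolate, kept at 25 degrees and taken at about 20 h after egg laying. Small groups of cells, 10 to 100 per library by the labels over all stages, were drawn from the disc with a glass capillary (the study's methods give a narrower range for stage 3), and their poly(A) RNA was amplified by PCR. The labels name 1 mother for the i cells and another for the p cells, so region and clutch cannot be told apart in any difference given below. The 2 libraries of central (c) cells came from the same mother as the p cells and are given beside the results. Since the labels do not say which libraries came from separate embryos, p-values measure the spread between these libraries.

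The germ disc of this spider is a sheet of cells that forms on one side of the yolky egg and gives rise to the body of the embryo. Its center lies at the embryonic pole and its edge faces the abembryonic side, and the radial axis from center to rim is laid down while the disc forms. Later, genes such as *hedgehog* are expressed in rings along the rim, and cells at the pole go on to form the cumulus, a signaling center. The i cells lie between center and rim, so the comparison asks which transcripts differ between the rim and the band inside it at an early time.

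The total count on genes was 5948619 to 7754327 in i libraries and 8487511 to 10500376 in p libraries, so the groups also differed in depth, and the part of depth in the results was not tested. A count of 3, the limit that a count of 0 allows, was 0.280 to 0.496 CPM depending on the library. This limit covers counting error only, since the libraries were amplified by PCR and carried no tags for single molecules. Libraries of different regions were about as much alike as libraries of the same region. The correlation across the 9861 genes, which are not independent replicates, of log2(CPM + 1) was 0.625 to 0.636 within i cells, 0.587 to 0.635 within p cells and 0.593 to 0.638 between them. Among genes that reached 10 CPM in one library, 22.6% to 23.5% had 3 counts or fewer in another i library, 21.2% to 25.6% in another p library and 20.8% to 25.9% across regions. The biological coefficient of variation estimated by edgeR was 1.99. There is no defining marker for i cells to check the label. The 10 Group C candidates of the study, which it picked on these libraries for low counts in i and p cells, had 0 counts in every i library and at most 7 counts in any p library, and this selection makes them no check of the labels. Vitellogenin genes, which encode yolk proteins, summed to 0.310 to 102 CPM in i libraries and 0.0934 to 38.8 CPM in p libraries over 4 genes. The 5 genes annotated as piwi or maelstrom, which act in germ cells, summed to 4007 to 4997 CPM in i and 4381 to 7063 CPM in p libraries.

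The regions were compared by the quasi-likelihood test of edgeR, with p-values adjusted by the Benjamini-Hochberg method. Of the genes tested, 9 (0.0913%) had an adjusted p under 0.05, 6 higher in p cells (0.0608%) and 3 higher in i cells (0.0304%). An unadjusted p under 0.05 was reached by 491 genes (4.98%), 250 higher in p and 241 higher in i cells. In 7 of the 9 differentially expressed genes (DEGs) the libraries of the regions did not overlap in CPM, as in 876 of all genes tested (8.88%), 503 of them higher in p (5.1%) and 373 higher in i cells (3.78%). The median log2 fold change of p over i cells over all genes tested was 0.07. Of the 9 DEGs, 4 had no product or an uncharacterized one. The others were annotated as an enzyme subunit of the respiratory chain, a kinesin, a carboxypeptidase, a splicing factor and a lipid kinase. A higher level in a group of cells can mean more transcript per cell or more cells that carry it, which cannot be told apart here. Levels below are CPM on the TMM scale of the 6 libraries, a scaling that corrects the library size for genes that take a large share of the reads.

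**Figure D1:**
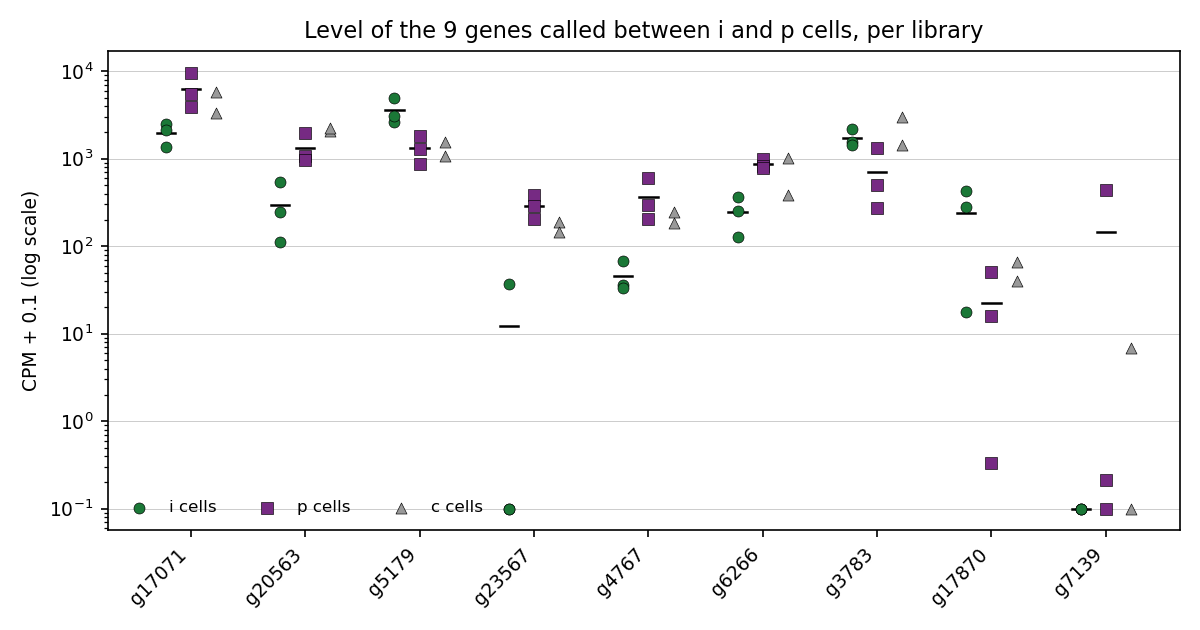
Level of each of the 9 DEGs in every stage-3 library (vertical axis, CPM + 0.1 on a log scale), with i cells as circles, p cells as squares, c cells as triangles and black bars for the means of i and p cells. Points are apart by region in 7 genes and overlap in *g17870* and *g7139*, and in *g7139* 1 p library carries the level.

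The gene with the lowest p was *g17071*, which carries no product name (scaffold 2411 of Ptep_1.0, from 97387 to 115384). It was at 2478, 1356 and 2122 CPM in i1 to i3 and at 9659, 5427 and 3907 CPM in p1 to p3. Every p library was above every i library, and p1 was the highest. The level in p cells was 3.20-fold higher (adjusted p = 1.29e-10), with a fitted log2 difference of 1.68 and a standard error of 0.22. In RPKM, the authors' values per length of gene, this transcript ranked first of all genes in i1 and in the 3 p libraries, and it ranked 8 in i2 and 5 in i3.

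An abundant gene with a known product was *g20563*, annotated as cytochrome c oxidase subunit 3-like (scaffold 3948, from 1 to 13430). This protein is a core subunit of the last complex of the respiratory chain, and in animals it is normally encoded by the mitochondrial genome. Whether this gene model lies in mitochondrial or in nuclear DNA was not analysed here. It was at 111, 539 and 249 CPM in i cells and at 1974, 1088 and 967 CPM in p cells. The lowest p library was above the highest i library, and the difference was 4.35-fold (log2 fold change 2.12, standard error 0.34, adjusted p = 1.68e-06). Its RPKM rank was 20 to 51 in p libraries and 129 to 805 in i libraries.

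A gene higher in i cells was *g5179*, annotated as kinesin heavy chain-like (scaffold 626, from 106827 to 131434). Kinesin heavy chain is the motor subunit that carries cargo along microtubules. It was at 2635, 4981 and 3112 CPM in i cells and at 1798, 866 and 1293 CPM in p cells. All i libraries were above all p libraries, by 2.71-fold on the fitted scale (log2 fold change -1.44, standard error 0.24, adjusted p = 6.83e-06). Without i2, the library with the highest level, the adjusted p was 0.0938.

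A further 3 genes were higher in p cells with no overlap. The gene *g23567*, annotated as uncharacterized protein CG3556 (scaffold 57, from 1501674 to 1518286), had 36.4 CPM in i1, no count in i2 and i3, and 203, 380 and 289 CPM in p cells. This was the steepest difference among the DEGs seen in every p library, at 4.64 on the log2 scale with a standard error of 0.90 (adjusted p = 0.000574). The gene *g4767* (scaffold 591, from 53976 to 84651) is annotated as carboxypeptidase B, a secreted enzyme that removes basic residues from the end of proteins. It was at 67.4, 36.2 and 33.4 CPM in i cells and at 294, 207 and 606 CPM in p cells, 8.26-fold higher in p cells (adjusted p = 0.0024). The gene *g6266* (scaffold 742, from 77336 to 80550) is uncharacterized. It was at 128, 253 and 366 CPM in i cells and at 986, 834 and 785 CPM in p cells, a narrow range in p cells that lay 3.50-fold above i cells on the fitted scale (adjusted p = 0.00267). The model just before it on the same strand, *g6265* (from 62016 to 76872), carries the same locus name, so both may be pieces of 1 gene. It was at 94.7, 116 and 194 CPM in i cells and at 640, 351 and 381 CPM in p cells, with a similar log2 fold change of 1.78 that did not pass the test (adjusted p = 0.134).

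Another gene higher in i cells, the uncharacterized *g3783* (scaffold 502, from 689263 to 711233), was at 1552, 1446 and 2182 CPM in i cells and at 1310, 507 and 274 CPM in p cells. The groups did not overlap, but p1 was close to the lowest i library. The difference was 2.48-fold (log2 fold change -1.31, standard error 0.29, adjusted p = 0.00602), and without p3, the lowest library, the adjusted p was 0.394.

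The other 2 DEGs had overlapping libraries. The gene *g17870*, annotated as splicing factor 3B subunit 2-like (scaffold 2679, from 163936 to 166208), encodes a component of the spliceosome complex that binds the branch point. It was at 17.5, 283 and 426 CPM in i cells and at 15.7, 0.23 and 51.2 CPM in p cells, so i1 lay among the p libraries (log2 fold change -3.33, standard error 0.76, adjusted p = 0.0128). The gene *g7139*, annotated as phosphatidylinositol 4-kinase alpha-like (scaffold 17, from 961460 to 1033300), had no count in i cells or in p1, 0.115 CPM in p2 and 440 CPM in p3. Its call (adjusted p = 0.0211) rested on p3 alone, and without that library the gene was below the limit for testing.

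The calls differed in how much they depended on single libraries and on the test. Those of *g17071* and *g20563* kept an adjusted p under 0.05 with each of the 6 libraries left out in turn, the highest being 0.000222 and 0.00451. The size of the difference in *g20563* depended on i2, the highest i library, without which the log2 fold change was 2.92. That of *g3783* was -2.13 without p1. The call of *g4767* was lost without i2, i3 or p3, with adjusted p of 0.0938, 0.116 and 0.169. The call of *g6266* was lost without i1 (0.207) or i2 (0.0836), and that of *g23567* without i2 (0.0896, log2 fold change 3.95) or i3 (0.0599). Without i1, which held all its counts in i cells, *g23567* was at 0 in the i cells left. That of *g3783* was also lost without i3 (0.563) or p2 (0.289), and that of *g7139* without i1 (0.208), i2 (0.222) or i3 (0.400). For *g17870* the adjusted p was 0.206 without i2, 0.914 without i3, 0.129 without p1 and 0.202 without p2, and its log2 fold change ran from -4.86 without p3 to -2.73 without i3. With edgeR's likelihood ratio test, which does not allow for error in the dispersion of each gene, 4 genes were called, among them *g23567* and *g7139* of the DEGs above. The adjusted p of *g17071* was then 0.318 and that of *g20563* 0.136. DESeq2's Wald test called 197 genes, 103 higher in p and 94 higher in i cells, with 5 of the 9 DEGs among them. Of these *g20563* was just under the threshold (adjusted p = 0.04725). Not called were *g23567* (0.577), *g17870* (0.354), *g3783* (0.226) and *g7139*, which had no adjusted p in that test.

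**Figure D2:**
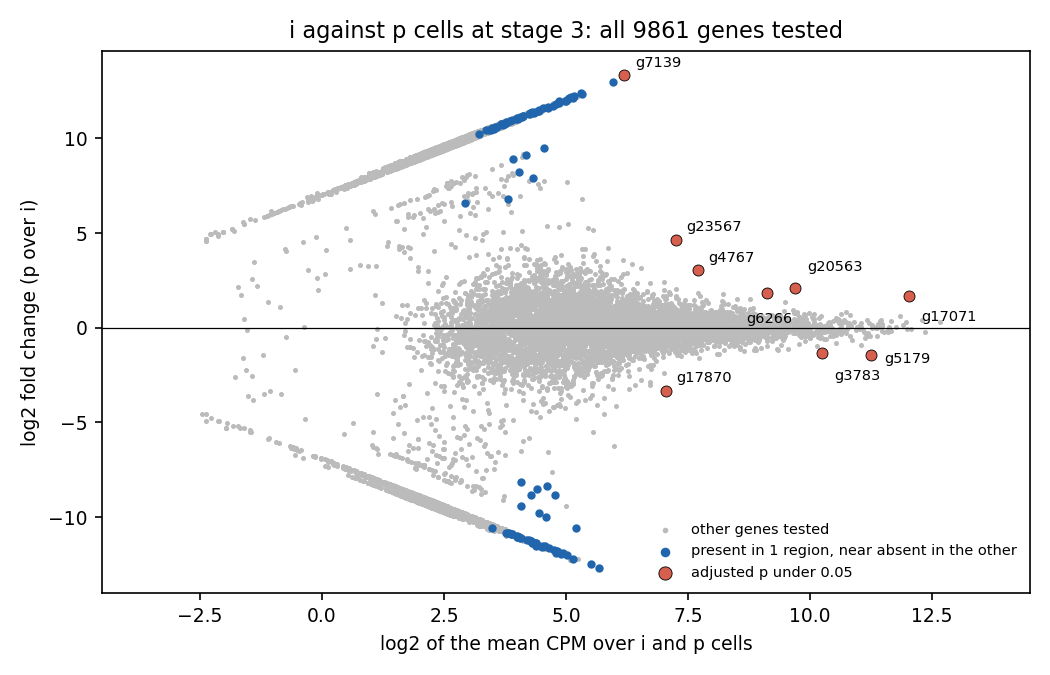
Fitted log2 fold change of p over i cells (vertical axis) against log2 of the mean CPM over both regions (horizontal axis) for the 9861 genes tested. DEGs are red and genes present in one region but near absent in the other blue, and the arms at top and bottom hold genes with no count in one region, whose fitted fold change depends on the count edgeR adds and is no measure of size.

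The c cells share their mother with the p cells, so their levels show where another region of that clutch lay. In 6 of the 7 non-overlapping DEGs, both c libraries lay beyond the range of the i libraries on the side of the p cells. These 7 genes were picked for i and p libraries that lie apart, and the share over all genes tested was not counted. The count is therefore no evidence that c cells are like p cells. The kinesin *g5179* was at 1548 and 1067 CPM in c1 and c2, within the range of p cells. The oxidase gene *g20563* was at 2061 and 2224 CPM, above every p library. The unnamed *g17071* was at 3310 and 5739 CPM. The carboxypeptidase *g4767* was at 248 and 186 CPM, and *g6266* at 1006 and 386 CPM. The gene *g23567* was at 191 and 145 CPM, between the i and the p libraries. The exception was *g3783*, at 1419 CPM in c1, just below the i libraries, and 2971 CPM in c2, above all of them. Because c and p cells share a mother and i cells do not, region and clutch cannot be told apart in these values either.

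Levels at later stages, each stage from 1 further mother, were set side by side without a test, since each stage was normalized on its own. The oxidase gene *g20563* was at 19.3 and 0.101 CPM in stage-4 c libraries and at 41.5 and 107 CPM in stage-4 p libraries, below every stage-3 library. At early stage 5 it was at 2043 and 2157 CPM in c and at 1670 and 1831 CPM in p libraries. At each later stage mother and stage cannot be told apart, as region and mother cannot between i and p cells at stage 3. The unnamed *g17071* was at 2878 to 7439 CPM in the 4 stage-4 libraries and at 572 to 1870 CPM in the 4 of early stage 5. The kinesin *g5179* stood at 1109 to 3199 CPM and at 1413 to 2815 CPM at the respective stages. Of the other DEGs, *g4767* was at 3.63 to 162 CPM at stage 4 and at most 1.33 CPM at early stage 5, and *g6266* at 15.1 to 226 CPM and at most 9.55 CPM. The gene *g3783* was at 116 to 560 CPM at stage 4 and 6.28 to 44.2 CPM at early stage 5, and *g23567* at most 76.5 and 5.63 CPM. These 4 genes were lower in every early stage-5 library than in every p library of stage 3.

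**Figure D3:**
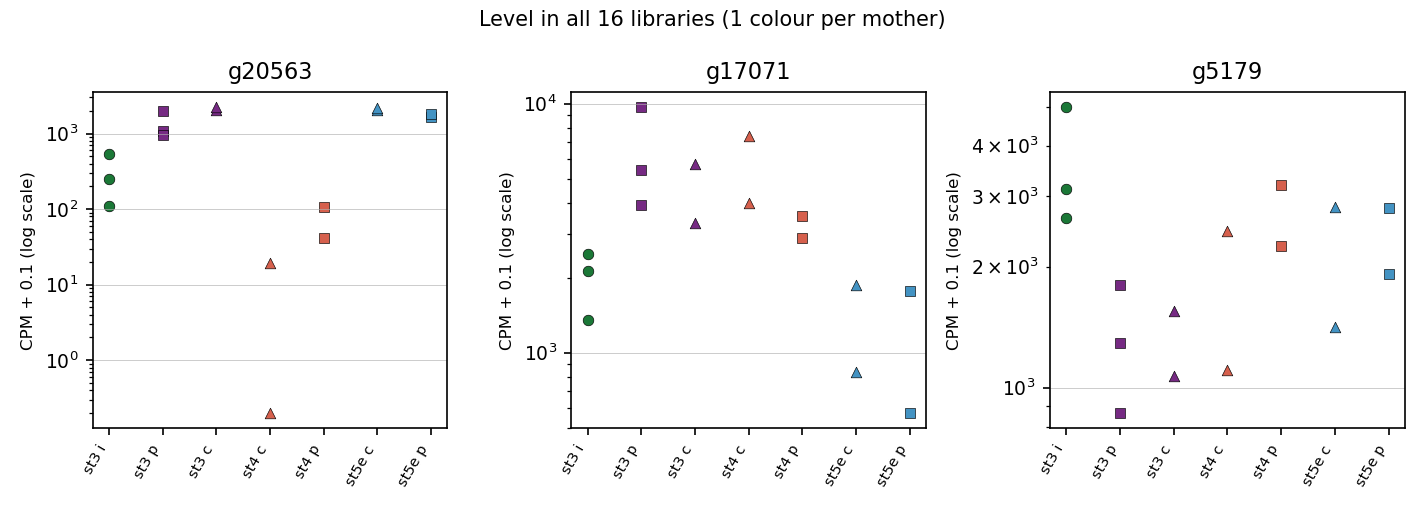
Level of *g20563*, *g17071* and *g5179* in all 16 libraries (vertical axes, CPM + 0.1 on a log scale), by stage and region, with 1 colour for each of the 4 mothers. The oxidase gene *g20563* is at 111 to 539 CPM in stage-3 i cells and 0.101 to 107 CPM at stage 4, and between 967 and 2224 CPM in all other libraries.

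Beyond the DEGs, the genes with the lowest p among those with non-overlapping libraries are given as values, since none passed the test. On the p side these began with *g6211*, annotated as nucleolar GTP-binding protein 1-like, a factor of ribosome assembly. It was at 360, 718 and 105 CPM in i and 1425, 890 and 780 CPM in p cells (adjusted p = 0.0638). Next came the tubulin gene *g1904* described below, *g6265*, the Luc7-like splicing gene *g23577* at 404, 105 and 190 against 452, 557 and 914 CPM (adjusted p = 0.134), and *g7140*, annotated as CCAAT/enhancer-binding protein zeta-like, at 120, 291 and 136 against 374, 564 and 681 CPM (adjusted p = 0.211). The last lies next to *g7139*.

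On the i side the first was *g18724*, annotated as unconventional myosin-XV, an actin motor. It was at 171, 131 and 72.6 CPM in i cells, at 4.93 CPM in p1 and at 0 in p2 and p3 (adjusted p = 0.0675). Its c libraries, of the same mother as the p cells, were at 67.7 and 107 CPM. The translation initiation factor eIF3A-like *g7673* was at 2288, 3384 and 2561 CPM in i and 1793, 1053 and 1562 CPM in p cells (adjusted p = 0.138). Further genes were *g1604*, uncharacterized, at 160 to 230 CPM in i and 4.09 to 37.5 CPM in p cells, *g16854*, a glyoxylate reductase, at 81.9 to 264 against 0 to 47.4 CPM, *g11258*, proline-rich protein 4, at 949 to 1120 against 432 to 523 CPM, and *g14713*, the ubiquitin ligase MYCBP2, at 174 to 262 against 0.187 to 77.7 CPM. Their adjusted p ranged from 0.136 to 0.285. For *g11258* both groups were narrow, and both c libraries (484 and 279 CPM) were at or below the p level.

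Genes with an on and off pattern were sought by their levels, with no test of the pattern: at least 10 CPM in all 3 libraries of one region and at most 3 counts in each library of the other. There were 58 genes present in p and near absent in i cells (0.588% of the genes tested) and 47 of the opposite pattern (0.477%). In the quasi-likelihood test 0 of these 105 genes had an adjusted p under 0.05. An unadjusted p under 0.05 was reached by 31 and 41 of them, against 4.98% of all genes tested. The lowest adjusted p were 0.122 and 0.134. The likelihood ratio test called 1 in each set, and DESeq2's Wald test 47 of the 58 and 47 of the 47, against 197 of all 9861 genes. Because the sets were picked on these same libraries, such counts are no separate support for the pattern. Fold differences were taken as the mean of the region with the gene over the mean floor of 3 counts in the other. They were 33.7-fold to 278-fold (median 79.3) for the p set and 71.3-fold to 325-fold (median 133) for the i set. As ratios of means they are no minimum over single libraries, and the floor covers counting error only. The mean floor was 0.448 CPM in i and 0.313 CPM in p libraries, so these folds do not rank the sets against each other. With a stricter level of 30 CPM there were 13 and 7 such genes.

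The p set was led by *g1904*, tubulin alpha-1A chain (scaffold 353, from 384286 to 418880), a building block of microtubules. It had 0 counts in all i libraries and 201, 108 and 64.5 CPM in p cells, with a mean 278-fold above the floor of i cells. The unnamed *g18041* was at 95.3, 94.7 and 51.4 CPM in p cells, and its neighbor on scaffold 2734, *g18040* (TD and POZ domain-containing protein 2-like), at 34.5, 41.9 and 137 CPM, both with 0 counts in i cells. The transcription factor gene *g26874* (GATA-4 by its product name, *fuchi* in the study; scaffold 177, from 310446 to 328722) was at 78.2, 56.8 and 66.3 CPM in p cells and at 0 counts in i cells. Its c libraries were far above this, at 1037 and 1798 CPM, so its order was c above p above i. The mean of p cells was 150-fold above the floor of i cells, and the adjusted p of the gene was 0.635. The remaining leading genes were *g377* (ADAMTS-like protein 1, an extracellular matrix protein), *g156* (golgin subfamily A member 4-like), *g10169* (GMP reductase 2-like) and *g4752* (zinc finger protein 271-like), with means of 65.3 to 79.6 CPM in p cells. Among the others, picked after their values were seen, the tubulin-specific chaperone A-like *g16465* was at 56.4, 55.5 and 54.8 CPM in p cells, and the nuclear receptor gene *g25144* (hormone receptor 4) at 24.8, 59.4 and 39.9 CPM.

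The i set was led by the uncharacterized *g2233* (scaffold 374, from 783605 to 806523), at 60.5, 104 and 141 CPM in i cells and 0 counts in p cells. Its mean was 325-fold above the floor of p cells. Next was *g17404*, the RNA helicase DHX8 that releases spliced mRNA from the spliceosome, at 133, 34.1 and 106 CPM. The demethylase *g24687* (lysine-specific demethylase 2A-like) was at 23.4, 99.6 and 98.5 CPM with 1 count in p1. The others were *g3022* (a scaffold protein of the aminoacyl-tRNA synthetase complex), *g23986* (serine/threonine-protein kinase D3), *g26661* (adenylate cyclase type 5, which makes cyclic AMP), *g6919* (coiled-coil domain-containing protein 50) and the uncharacterized *g295*, with means of 57.1 to 70.5 CPM in i cells. Among further genes chosen after their values were seen, *g5988* (vascular endothelial growth factor receptor 3-like) was at 50.5, 12.9 and 79.3 CPM in i cells and at 0 counts in all p and c libraries.

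The c libraries divided both sets. Of the 58 genes present in p cells, 26 had more than 3 counts in both c libraries, 19 in 1 of them and 13 in neither. Of the 47 present in i cells the numbers were 15, 23 and 9. The same split over all genes tested was not counted, so these numbers are not read as a trait of the sets. Where a single c library held the gene it was c1 in 17 of 19 and 21 of 23 genes. This library also had more genes at 1 CPM or above (8236) than c2 (5653), and what part this plays was not tested.

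**Figure D4:**
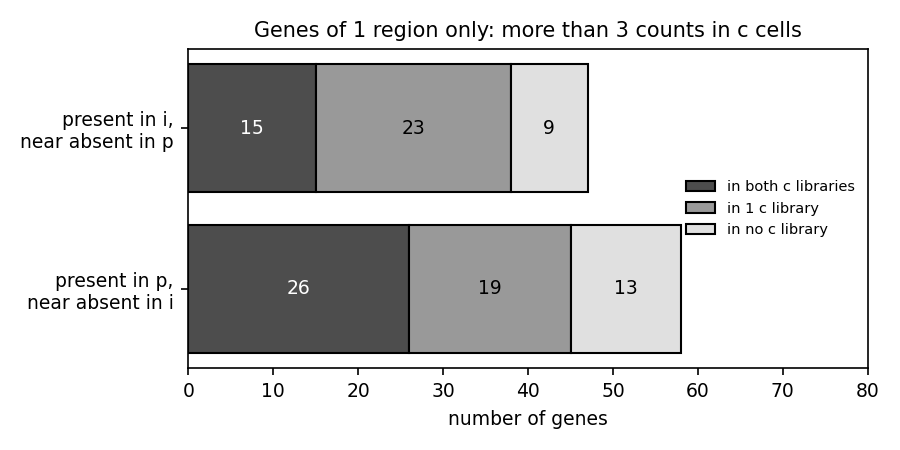
Number of genes (horizontal axis) present in one region and near absent in the other, split by whether they had more than 3 counts in both, 1 or neither of the c libraries. Of the 58 p genes 26 were in both c libraries, and of the 47 i genes 15 were. The share over all genes tested was not counted.

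The study picked candidates for local expression partly on these libraries, so their direction here is not independent evidence. All 4 Group CP candidates (*g26874*, *g18041*, *g1904* and *g4752*) and all 5 Group P candidates had 0 counts in all i libraries, which was part of how they were picked. None of the 9 passed the test, with adjusted p from 0.122 to 0.849. In Group P, *g7876* (cytochrome P450 2C15-like) at 40.2, 55.6 and 51.9 CPM and *g4633* (tether containing UBX domain for GLUT4-like) at 50.5, 37.9 and 40.8 CPM were even across p libraries, and their c libraries had 0 or 1 count. The other 3 were uneven. The gene *g7720* was at 77.2 and 146 CPM in p1 and p2 and at 0.0934 CPM in p3, *g1424* at 39.5, 0.115 and 95.0 CPM, and *g22959* at 7.34, 48.0 and 54.0 CPM.

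For genes known from the rim at later stages, the libraries of i and p cells overlapped at stage 3. The hedgehog gene *g4322*, whose product is a secreted signal, was at 0, 76.7 and 10.7 CPM in i and 62.1, 73.6 and 0 CPM in p cells (log2 difference 0.41, adjusted p = 0.929). The homeobox gene *g7954* was at 0, 319 and 48.1 against 219, 89.9 and 142 CPM (log2 fold change 0.19, adjusted p = 0.938). The *odd-paired* gene *g12202*, a zinc finger factor, was at 337, 485 and 375 against 339, 390 and 98.1 CPM (log2 fold change -0.57, adjusted p = 0.849). The BarH1 gene *g8250* was at 27.7, 72.4 and 154 against 94.5, 61.0 and 14.6 CPM (log2 fold change -0.59, adjusted p = 0.861). The directions of *g4322*, *g7954* and *g8250* turned when single libraries were left out. Of 7 genes listed for the abembryonic side and endoderm, 4 were tested and 0 called (adjusted p 0.849 to 0.892), and *g2114* was at 1.99, 1.26 and 38.9 CPM in p cells and 0 counts in i cells. Alpha-catenin (*g13984*), a part of cell junctions used as a reference, was at 94.4, 0 and 26.3 CPM in i and 102, 149 and 144 CPM in p cells (adjusted p = 0.849).

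Groups of genes were read by their products in 18 lists of 16 to 112 tested members. Called genes occurred in only 3 of them: *g20563* among 58 genes of the respiratory chain and ATP synthase, *g5179* among 80 tubulins, kinesins and dyneins, and *g17870* among 112 spliceosome genes. The other 15 lists had 0 calls in the quasi-likelihood test. At an unadjusted p under 0.05 they held from 0 genes (Wnt, hedgehog and Notch pathways, 26 tested) to 6 genes (cell adhesion and basement membrane, 66 tested, 9.09%). The highest share was that of histones, 2 of 16 genes (12.5%), against 4.98% of all genes. DESeq2's Wald test called at most 3 genes in any of these 15 lists and the likelihood ratio test 0.

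**Figure D5:**
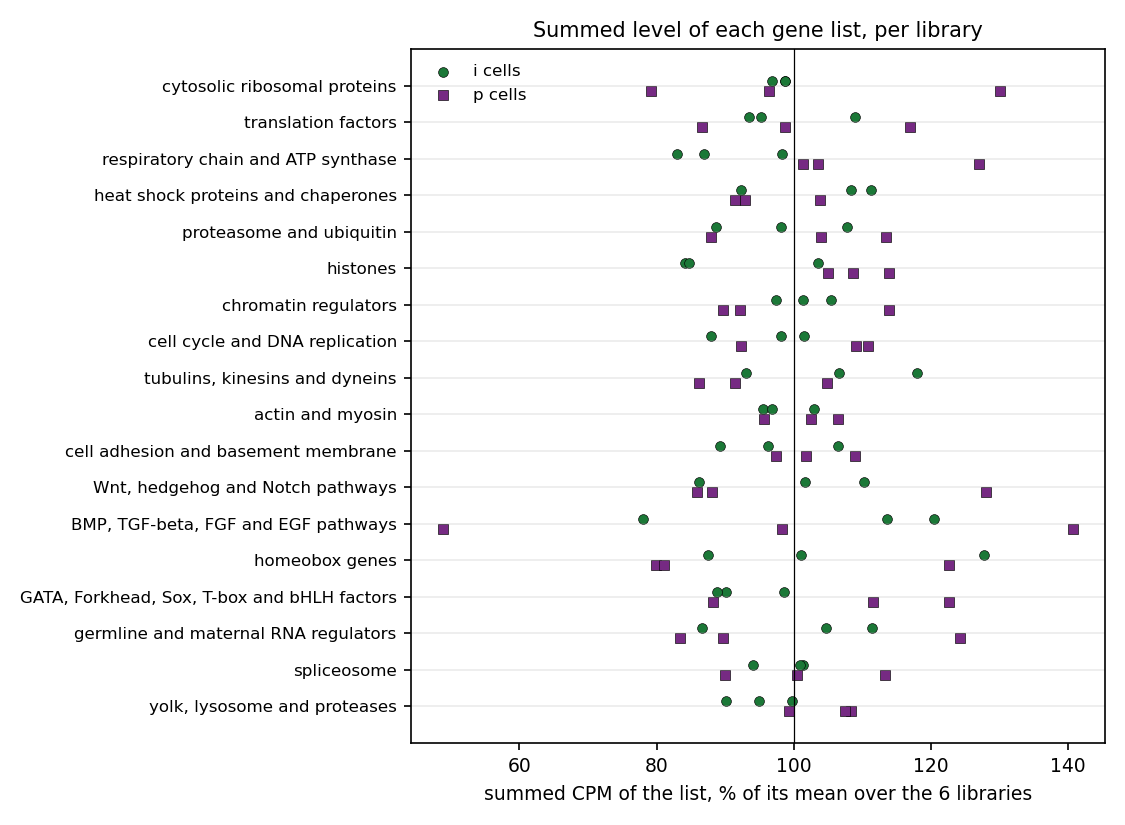
Summed CPM of each of the 18 gene lists in every i (circles) and p (squares) library, as % of the mean of the list over the 6 libraries. The groups are apart for the respiratory chain and for histones and overlap for the other 16 lists.

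Energy metabolism and histones were the lists whose summed level did not overlap. The respiratory chain genes summed to 5811 to 6882 CPM in i and 7092 to 8889 CPM in p libraries, with a median log2 fold change of 0.33 against 0.07 over all genes. This separation included *g20563*. Without it the other 57 genes summed to 5272 to 6771 CPM in i and 6004 to 6915 CPM in p cells, which overlap. The median log2 fold change of these 57 genes was also 0.33. Of the 58 genes, 6 (10.3%), *g20563* among them, were apart and higher in p cells. In the other direction 1 (1.72%) was apart, against 5.1% and 3.78% of all genes. A member of complex I, *g8149*, was at 26.8, 0 and 0 CPM in i and 56.2, 45.9 and 65.5 CPM in p cells (adjusted p = 0.849). The 16 histone genes, whose proteins package DNA, summed to 3392 to 4172 CPM in i and 4234 to 4589 CPM in p cells. Their median log2 fold change was 0.53. Only poly(A) RNA was sequenced, so the sums may miss histone transcripts without a poly(A) tail. The gap between the groups was small beside the range within them. Of these genes 2 (12.5%) were apart, both higher in p cells, against 5.1% of all genes. Histone H1E (*g16306*) was at 82.0, 63.0 and 105 against 205, 235 and 256 CPM (adjusted p = 0.779), and histone H4 (*g17400*) at 230, 310 and 294 against 544, 398 and 529 CPM (adjusted p = 0.849).

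In the machinery of translation, 5 of 76 cytosolic ribosomal protein genes were apart with the higher level in p cells and 0 with the higher level in i cells, and 0 were called. These are 6.58% and 0%, against 5.1% and 3.78% of all genes tested. Ribosomal protein L15 (*g6355*) was at 154, 164 and 153 CPM in i and 563, 394 and 325 CPM in p cells (adjusted p = 0.438). The summed level of this list was even in i libraries, at 49051 to 49967 CPM, and uneven in p libraries, at 40097 to 65881 CPM. Elongation factor 1-alpha (*g27264*) was at 2234 to 2671 CPM in i and 2551 to 3945 CPM in p cells, and elongation factor 1-gamma (*g16084*) at 594 to 765 against 267 to 417 CPM (adjusted p = 0.543).

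Of 112 splicing genes, 11 (9.82%) were apart and higher in p cells and 5 (4.46%) apart and higher in i cells, against 5.1% and 3.78% of all genes tested. The splicing factor 3B subunit 4 gene (*g8701*) was at 843, 713 and 642 CPM in i and 286, 575 and 285 CPM in p cells (adjusted p = 0.663). Among 47 germline and maternal RNA regulators, 1 gene (2.13%) was apart and higher in p and 5 (10.6%) were apart and higher in i cells, beside the same shares of all genes. The small RNA binding protein gene *g8695* (argonaute-2-like) was at 1340, 1623 and 1483 CPM in i and 1052, 654 and 595 CPM in p cells (adjusted p = 0.305), and *g12797* (argonaute-4-like) at 0, 49.6 and 105 against 325, 268 and 26.2 CPM (adjusted p = 0.601). Of 82 chaperone genes, 3 (3.66%) were apart and higher in p and 6 (7.32%) apart and higher in i cells. The most abundant of those named, heat shock 70 kDa protein cognate 4 (*g27068*), was at 2432, 2445 and 1923 CPM in i and 1715, 1388 and 1233 CPM in p cells (log2 difference -0.65, adjusted p = 0.718).

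For the cytoskeleton, 5 of 80 tubulin, kinesin and dynein genes (6.25%) were apart in each direction, against 5.1% of all genes higher in p and 3.78% higher in i cells. Apart from *g1904*, a second alpha tubulin gene, *g21245*, was at 61.2, 83.3 and 71.6 CPM in i and 199, 161 and 333 CPM in p cells (adjusted p = 0.663). Alpha tubulin genes are alike in sequence, and the study filtered its alignments by a uniqueness threshold. Reads of such genes could be lost in that step, so these values are uncertain. The spectrin beta chain gene *g26684*, which lines the cell membrane with actin, was at 78.4, 39.8 and 73.0 against 258, 222 and 167 CPM (adjusted p = 0.663). Among adhesion genes, laminin alpha (*g15376*) was at 272, 32.1 and 120 CPM in i and 44.0, 0 and 0.187 CPM in p cells (adjusted p = 0.305), and a fat-like cadherin (*g7567*) at 35.3, 4.47 and 18.3 against 321, 180 and 0.467 CPM (adjusted p = 0.305).

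None of the 26 Wnt, hedgehog and Notch genes or the 25 genes of the BMP, TGF-beta, FGF and EGF pathways passed the test, and in each of these lists 1 gene was apart, higher in i cells (3.85% and 4% of the tested members, against 3.78% of all genes). The ligand *g16925* (bone morphogenetic protein 10-like) was at 63.2, 103 and 101 CPM in i and 35.2, 18.0 and 0.56 CPM in p cells (adjusted p = 0.849). The receptor *g27554* (frizzled-4, which binds Wnt ligands) was at 18.3, 35.2 and 0 against 21.6, 96.6 and 105 CPM (adjusted p = 0.849). Among homeobox genes, 37 of the 155 in the annotation were tested. Of these 2 (5.41%) were apart and higher in p and 0 apart and higher in i cells, against 5.1% and 3.78% of all genes. The gene *g15951* (barH-like 2 homeobox protein) had 0 counts in i cells and a mean of 29.5 CPM in p cells (adjusted p = 0.849). In the other direction, with overlapping libraries, *g11268* (zinc finger homeobox protein 3-like) was at 983, 1463 and 1096 CPM in i and 1047, 614 and 513 CPM in p cells (adjusted p = 0.827). The Ets factor *g3965* was narrow in both groups, at 127, 116 and 113 CPM in i and 37.8, 30.5 and 45.8 CPM in p cells, yet did not pass (adjusted p = 0.849). The 37 GATA, Forkhead, Sox, T-box and bHLH genes had a median log2 fold change of 1.25, but their summed levels overlapped, at 1547 to 1716 CPM in i and 1537 to 2136 CPM in p cells. Of these genes 4 (10.8%) were apart and higher in p and 3 (8.11%) apart and higher in i cells, against 5.1% and 3.78% of all genes.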

How the data were processed

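RNA-seq was performed by the authors on small cell groups from stage-3 to early stage-5 embryos. Per the labels and the study's methods, single-end reads were aligned to Ptep_1.0 with BLAT and counted on AUGUSTUS gene models by htseq-count. The deposited counts are raw reads per gene, not normalized, and all tests used them. The deposited RPKM values were computed by the authors and used here for ranks and lengths only. All 16 columns were matched to samples by name. The 5 rows without a gene, empty at stage 3, were left out.

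Genes that reached 1 CPM in any of the 6 libraries were tested with R 4.3.3 and edgeR 4.0.16 (TMM, glmQLFit, glmQLFTest, Benjamini-Hochberg, threshold 0.05), without a term for mother, which equals region. The standard error is the absolute log2 fold change divided by the square root of F. DESeq2 1.42.0 was an alternative. Libraries of c cells were placed on the same CPM scale. The replicate numbers were checked for pairing and did not pair the libraries (same-number correlations of deviations -0.022 to 0.026). The test was also run on simulated counts with large changes planted in the more abundant genes only. The outcome is not given and is no support for the calls.

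Named genes are the DEGs, up to 10 non-overlapping genes per direction by p, up to 8 on and off genes per direction by mean CPM, the study's candidates and region markers, and in each list the called members and up to 3 with the lowest p. Not all are printed. The comparison, gene lists and rules were chosen with earlier results of these data known.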

Additional observations from a re-analysis of the deposited data

How the results depend on the processing

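The 9 DEGs numbered 8 to 13 under the legacy quasi-likelihood test, other normalizations, other filters on low counts, a prior count of 2, and a fit of 3 groups over 8 stage-3 libraries. The test itself moved the number, to 4 with the likelihood ratio test (2 shared) and to 197 with DESeq2's Wald test (5 shared), and the cause was not tested. With the replicate number as a block it was 0, with 263 genes at an unadjusted p under 0.05, although the numbers do not pair the libraries, which came from different mothers, and the fit leaves 2 residual degrees of freedom. Leaving out 1 library gave 4 to 16 DEGs, with 4 without i2, 4 without i3 and 16 without p1. The 105 on and off genes became 20 at 30 CPM, 89 with 0 counts required, and 230 to 276 without 1 library, where the rule asks for fewer libraries. Of the 95 genes of the naming rule, none reversed under the other settings. With 1 library left out the log2 fold change took both signs for *g4322* (-0.14 to 3.05), *g7954* (-0.34 to 2.70) and *g8250* (-1.19 to 0.087), genes that did not pass the test. Depth differed between the regions, and with levels this variable between libraries a p above the threshold does not show equal levels.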
